A study of Mus musculus with 4 samples.

Results

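The transcripts of 52 genes of the cell cycle were followed in brain endothelial cells (ECs) that had lost the forkhead transcription factor FOXQ1. The genes were a fixed list of symbols, chosen for their known roles in cell division, among them activators as well as inhibitors. The choice was made with earlier results of these data known. Of the 52, 51 were found among the 12693 gene symbols of the deposited table, and all 51 passed the filter on low values, set at 10 normalized counts on average, as did 12472 genes in all. *Cdt1*, a licensing factor that loads the replicative helicase, was not analysed here. Per the study, Smart-seq2-based RNA-seq was performed on cells sorted with a CD31 antibody from the cerebral cortex of mouse embryos at day 18 (E18). There were 2 wild-type (WT) and 2 *Foxq1* cKO samples (FOXQ1fl/fl;Tie2-Cre). The strain is recorded as C57BL/6, which the study's methods do not name. The labels give the tissue as brain, with total RNA, and do not mention the sort. The controls were littermates without the Cre transgene, and the Tie2 promoter directs Cre to vascular ECs. This promoter is also known to act in the blood cell lineage. The labels do not say how many embryos made up a sample or whether the samples were separate preparations, so p-values measure only the spread between these 4 samples.

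A cell that enters division switches on cyclin D with CDK4 and CDK6, which phosphorylate the retinoblastoma protein and free E2F factors to transcribe genes of DNA synthesis. Cyclin E with CDK2 then starts S phase, and cyclin B with CDK1 starts mitosis, which ends when the anaphase-promoting complex (APC/C) destroys the cyclins. Transcripts for mitosis accumulate in G2 and M phase, and they are commonly used as markers of dividing cells. Vessels of the embryonic brain grow by division of ECs, which are mostly quiescent in the adult.

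The target of the deletion was checked first. The normalized count of *Foxq1* was 353 and 297 in the WT samples and 5.44 and 32.6 in the cKO samples, so that the cKO mean was 5.84% of the WT mean. Its log2 fold change was -4.47 (SE 1.04) and its limma p was 0.00507 before and 0.857 after adjustment over all genes. The 4 samples held between 15827166 and 21466436 reads on the listed genes, the median gene had 477 reads in a sample, and the biological coefficient of variation was 50.2%. An exact permutation test (two-sided) of a single gene cannot go below a p of 0.333 in this design. Over genes, the standard error of the log2 fold change had a median of 0.496. No gene passed an adjusted p of 0.05 by limma or by edgeR, against 651 at an unadjusted p under 0.05 by limma and 62 past the adjusted threshold by DESeq2.

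Most of the cell cycle genes were measured higher in the *Foxq1* cKO samples, led by the genes of mitosis. Of the 51 genes, 41 had a log2 fold change above 0 and 10 below, which is 80.4% above against 50.7% of all genes tested. Their median log2 fold change was 0.36, against 0.0086 over all genes. As the list was chosen with earlier results of these data known, its share and median were not tested. *Mki67*, *Aurkb* and *Cenpa* were higher at an unadjusted p under 0.05 and none was lower, a share of 5.88% beside 2.17% of all genes that were higher and 3.05% that were lower by this measure. None of the 51 passed the adjusted threshold by limma (0% of all genes did), where the smallest adjusted p of any gene was 0.857, or by edgeR, and 1 of them, *Mki67*, passed it by DESeq2 (0.257% of all genes passed it in this direction). RNA from bulk cells does not tell more cells of a kind, here dividing cells, from more RNA per cell.

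The values of both cKO samples lay above those of both WT samples for 20 of the 51 genes and below them for 3, *Ccnd1*, *E2f1* and *Mcm6*. The background is 18% of all genes in each direction, against 39.2% and 5.88% of the cell cycle genes. The groups overlapped for the other 28. WT sample 1, which held the most reads, was the lowest of the 4 samples for 27 genes, or 52.9%, beside 29.6% of all genes. Without that sample the median log2 fold change of the cell cycle genes was 0.20, with 33 of 51 above 0, and with any other sample left out it was 0.33 to 0.41. Together the 51 genes made up 0.405% and 0.456% of the normalized counts in the WT samples and 0.480% and 0.514% in the cKO samples.

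**Figure D1:**
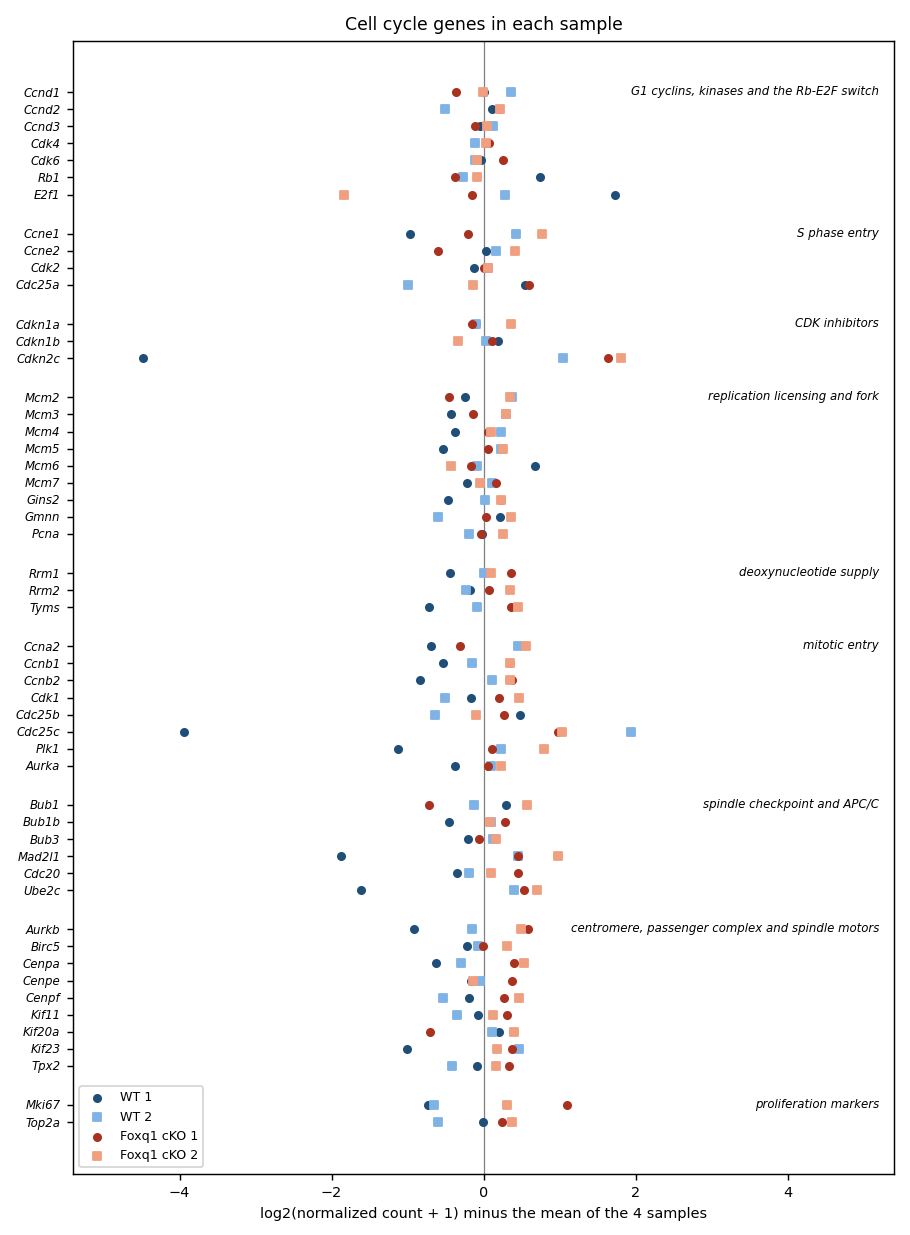
Level of each of the 51 cell cycle genes in the 2 WT (blue) and 2 *Foxq1* cKO (red and orange) samples, as log2(normalized count + 1) minus the mean of the 4 samples for that gene, ordered by role. WT sample 1 (dark blue) is the leftmost point for 27 genes, and the points farthest to the left are its values for *Cdkn2c* and *Cdc25c*.

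The role groups were joined into larger parts, a split that was not planned beforehand. Genes that drive entry into and passage through mitosis, together with the proliferation markers, had the higher median of the list when split in this way. Of these 25 genes, 23 had a log2 fold change above 0. For 13 of them both cKO samples were above both WT samples and for 0 both were below, beside 18% of all genes in each direction. The 25 genes had a median log2 fold change of 0.55. Their summed normalized counts were 17528 and 19632 in the WT samples and 26623 and 26921 in the cKO samples. The other 26 genes, of G1, S phase entry, CDK inhibition, replication and nucleotide supply, had a median of 0.16 and overlapping sums, 55816 and 61706 in WT against 56029 and 61830 in cKO. Without WT sample 1 the medians were 0.25 and 0.0049, and deoxynucleotide supply, counted among the other genes, then had a median of 0.43, above mitotic entry at 0.24 and the spindle checkpoint and APC/C genes at 0.15. With all 4 samples, deoxynucleotide supply had a median of 0.45, beside 0.46 for the spindle checkpoint and APC/C genes. The difference between these parts was not tested.

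The proliferation markers gave the largest median of any role group, 1.0 over 2 genes. *Mki67* encodes Ki-67, which coats chromosomes in mitosis and is present in cycling cells but lost in resting ones. The study counted Ki67-positive cells and cells labelled with EdU, which marks DNA synthesis, in cultured primary brain ECs. It reported no significant difference between WT and *Foxq1* cKO. Those counts are of cultured cells, whereas the values here are RNA from sorted cells. The normalized count of *Mki67* was 748 and 793 in the WT samples and 2661 and 1545 in the cKO samples. The WT samples were close together and the lower cKO sample was still well above them, although the cKO samples differed from each other. The cKO mean was 2.73-fold the WT mean, with a log2 fold change of 1.40 (SE 0.335, 95% confidence interval 0.58 to 2.21) and an unadjusted p of 0.00578 by limma. DESeq2 on the recovered reads gave an adjusted p of 0.0176. In limma without moderation of the variances, *Mki67* did not pass an unadjusted p of 0.05. Without cKO sample 1, the higher one, the log2 fold change was 1.0 and the unadjusted limma p was 0.0580.

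*Top2a* encodes topoisomerase II alpha, which untangles sister chromatids and is made in S, G2 and M phase. It had 2646 and 1763 normalized counts in the WT samples and 3163 and 3440 in the cKO samples. Both cKO samples were higher, but the WT samples differed by more than the gap between the groups. Its log2 fold change was 0.61 (SE 0.252) with an unadjusted limma p of 0.0512, which lay on the other side of 0.05 in 6 of the 15 alternative settings tried.

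**Figure D2:**
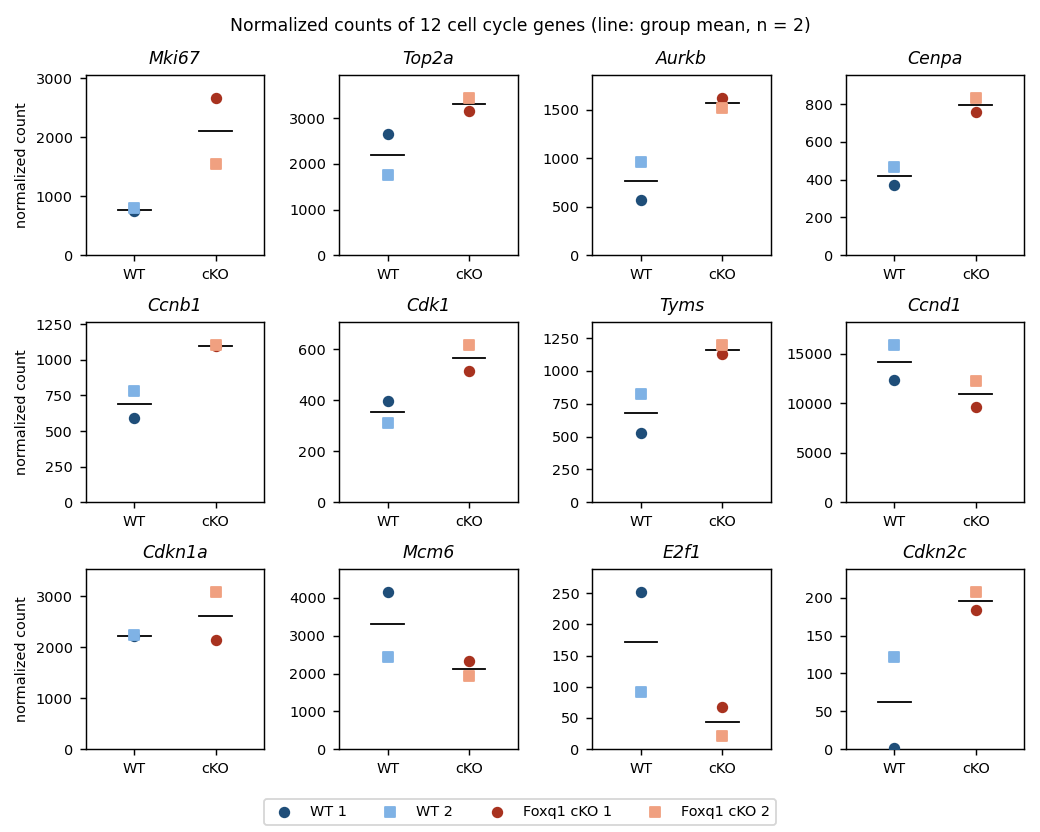
Normalized counts of 12 cell cycle genes in each sample, on axes that start at 0. Points are samples and the line is the mean of the 2 samples of a group, for *Mki67* 748 and 793 in WT and 2661 and 1545 in *Foxq1* cKO.

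Mitotic genes share short promoter sequences, and those of 5 genes are shown, 4 that were higher in both cKO samples and *Mcm6*, which was lower in both. Each is the 250 bases before the gene's start in RefSeq on GRCm38.p6, on the gene's own strand from 5′ to 3′. The coordinates of 4 windows matched GENCODE transcripts that begin in or near them. For *Mcm6* no GENCODE transcript was found to begin there, so the place of its window is less sure. Capitals mark 3 kinds of letters found on either strand: the cell cycle genes homology region or CHR (TTTGAA or TTCGAA), bound by the MuvB complexes that silence and then activate mitotic genes, the CCAAT box (CCAAT), bound by NF-Y, and the E2F letters (TTTCCCGC, TTTGGCGC, TTTCGCGC or TTTGCCGC). The windows lie at chr7:135716380-135716629 on the minus strand (*Mki67*), chr11:99024190-99024439 on the minus strand (*Top2a*), chr5:30666636-30666885 on the plus strand (*Cenpa*), chr10:69352913-69353162 on the minus strand (*Cdk1*) and chr1:128359706-128359955 on the minus strand (*Mcm6*).
*Mki67*: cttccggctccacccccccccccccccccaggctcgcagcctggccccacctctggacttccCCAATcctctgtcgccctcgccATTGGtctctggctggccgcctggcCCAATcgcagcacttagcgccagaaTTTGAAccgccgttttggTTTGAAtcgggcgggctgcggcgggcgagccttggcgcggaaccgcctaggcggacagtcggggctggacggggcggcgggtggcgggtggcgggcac
*Top2a*: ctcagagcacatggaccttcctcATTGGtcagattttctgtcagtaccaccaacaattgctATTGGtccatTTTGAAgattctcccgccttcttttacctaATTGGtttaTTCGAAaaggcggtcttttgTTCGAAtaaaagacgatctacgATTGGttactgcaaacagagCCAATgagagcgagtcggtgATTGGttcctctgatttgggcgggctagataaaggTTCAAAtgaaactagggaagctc
*Cenpa*: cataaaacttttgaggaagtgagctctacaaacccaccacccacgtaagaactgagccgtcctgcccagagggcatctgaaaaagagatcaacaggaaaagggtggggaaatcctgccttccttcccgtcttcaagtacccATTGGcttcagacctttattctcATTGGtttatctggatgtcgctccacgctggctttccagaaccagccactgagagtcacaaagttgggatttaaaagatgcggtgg
*Cdk1*: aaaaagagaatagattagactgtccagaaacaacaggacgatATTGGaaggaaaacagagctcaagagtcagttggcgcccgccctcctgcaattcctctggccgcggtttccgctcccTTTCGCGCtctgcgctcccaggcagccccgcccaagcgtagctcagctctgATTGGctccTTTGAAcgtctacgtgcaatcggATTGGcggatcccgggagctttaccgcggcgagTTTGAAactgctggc
*Mcm6*: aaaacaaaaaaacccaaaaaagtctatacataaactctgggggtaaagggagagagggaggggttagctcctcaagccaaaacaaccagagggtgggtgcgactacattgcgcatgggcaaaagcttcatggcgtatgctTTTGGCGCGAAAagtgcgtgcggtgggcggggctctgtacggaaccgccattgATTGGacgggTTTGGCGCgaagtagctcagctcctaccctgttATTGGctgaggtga

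The *Mki67* window holds 2 CHR and 3 CCAAT matches, that of *Top2a* 4 and 6, and that of *Cdk1* 2 and 3 with 1 E2F match. That of *Cenpa* holds 2 CCAAT matches and no CHR letters. The *Mcm6* window holds 2 CCAAT and 3 E2F matches, of which the pair at 110 and 106 bases before the start share letters. A RefSeq promoter was matched for 40 of the 52 listed genes, with 45 promoters in all. CHR letters were in 26.7% of these against 17.1% of all 32851 promoters in the table, the CCAAT box in 71.1% against 33.8%, and the E2F letters in 13.3% against 1.86%. Among the 12040 promoters of genes with deposited values, the shares were 12.2% for CHR, 35.3% for CCAAT and 3.31% for E2F. By role, CHR letters were in 5 of 7 promoters of the spindle checkpoint and APC/C genes, 2 of 6 of the mitotic entry genes, 1 of 6 of the centromere, passenger complex and motor genes and 2 of 8 of the replication licensing and fork genes. The CCAAT box was in 6 of 7, 6 of 6, 5 of 6 and 7 of 8 of these, so that it did not set the mitotic genes apart from the replication genes. For CHR letters, the 3 mitotic groups lay on either side of the replication genes. The proliferation markers held CHR letters and the CCAAT box in 2 of 2 promoters. CHR letters were in 0 of 5 promoters of the G1 genes, 0 of 3 of S phase entry, 0 of 5 of the CDK inhibitors and 0 of 3 of deoxynucleotide supply. The CCAAT box was in 1 of 5, 2 of 3, 1 of 5 and 2 of 3 of these. The E2F letters were in 3 of 8 replication promoters and in 0 of 7, 1 of 6 and 0 of 6 of the 3 mitotic groups in the same order. A match is a run of letters and says nothing of binding in these cells.

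The kinase and cyclin that start mitosis were higher in both cKO samples. *Ccnb1*, which encodes cyclin B1, had 594 and 780 normalized counts in the WT samples and 1097 and 1104 in the cKO samples, a 1.6-fold ratio of means with an unadjusted limma p of 0.0677. Its partner *Cdk1* had 398 and 312 in WT and 513 and 615 in cKO, a 1.59-fold ratio with a p of 0.159. For both genes the groups did not overlap, and neither passed the test. All 8 genes of mitotic entry had a log2 fold change above 0, with a median of 0.68. For 3 of the 8 both cKO samples were above both WT samples, beside 18% of all genes. The median was 0.24 without WT sample 1, which was the lowest sample for 6 of the 8, and 0.55 to 0.85 without any other sample.

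The smallest and largest values in the group were those of CDC25 phosphatases, which remove the inhibitory phosphates from CDK1. *Cdc25b* had 455 and 209 normalized counts in WT and 394 and 306 in cKO, with the cKO samples between the WT samples. *Cdc25c* had 1.69 and 158 in WT and 80.6 and 83.4 in cKO. The first of these is 2 reads, and the other WT sample was above both cKO samples. The log2 fold change of *Cdc25c*, 2.01 (SE 1.90), therefore rests on WT sample 1 and was -0.93 without it, and DESeq2, which weighs counts, gave 0.044.

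Genes of the spindle assembly checkpoint, which holds anaphase until chromosomes are attached, and of the APC/C had a median log2 fold change of 0.46 over 6 genes, 5 of them above 0. WT sample 1 was the lowest for 5 of the 6, and without it the median was 0.15. *Ube2c*, the ubiquitin-conjugating enzyme of the APC/C, had 231 and 933 normalized counts in WT and 1027 and 1151 in cKO, with a log2 fold change of 1.22 (SE 0.661, an unadjusted limma p of 0.113) that was 0.22 without WT sample 1 and 2.23 without WT sample 2. *Mad2l1*, whose product MAD2 inhibits the APC/C activator CDC20, had 50.6 and 258 in WT and 257 and 373 in cKO. For both genes the distance between the WT samples was larger than that between WT sample 2 and either cKO sample. *Bub1*, a checkpoint kinase, was the 1 gene of the group below 0, with 537 and 400 in WT and 266 and 651 in cKO, where the cKO samples lay on either side of WT.

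Of the 9 centromere, passenger complex and motor genes, 8 had a log2 fold change above 0. For 6 of the 9 both cKO samples were above both WT samples, beside 18% of all genes. The 9 genes had a median of 0.50 that stayed between 0.37 and 0.59 when each sample was left out. Their summed normalized counts were 7595 and 7920 in WT and 10667 and 10740 in cKO. *Aurkb*, the kinase of the chromosomal passenger complex that corrects faulty attachments, had 572 and 966 in WT and 1622 and 1517 in cKO. The cKO mean was 2.04-fold the WT mean, with a log2 fold change of 1.08 (SE 0.342) and an unadjusted limma p of 0.0197. Leaving out WT sample 1, cKO sample 1 or cKO sample 2 moved that p to 0.0623, 0.102 and 0.0805, with the log2 fold change between 0.70 and 1.12.

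*Cenpa*, the histone H3 variant that marks centromeres, had 372 and 469 normalized counts in WT and 760 and 832 in cKO. The samples within each group differed by less than the groups did, and the cKO mean was 1.89-fold the WT mean, with a log2 fold change of 0.93 (SE 0.367) and an unadjusted limma p of 0.0445. Without moderation of the variances *Cenpa* was the only gene of the list to pass, and *Mki67* and *Aurkb* did not. The *Cenpa* call ended with a replicate block (p of 0.0623) and by edgeR (p of 0.0548). The same 3 omissions as for *Aurkb* gave p-values of 0.109, 0.131 and 0.182 and log2 fold changes between 0.76 and 0.99. *Kif20a*, a kinesin of the central spindle, was the 1 gene of the group below 0, with 925 and 873 in WT and 495 and 1066 in cKO. Its cKO samples lay on either side of the WT samples.

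**Figure D3:**
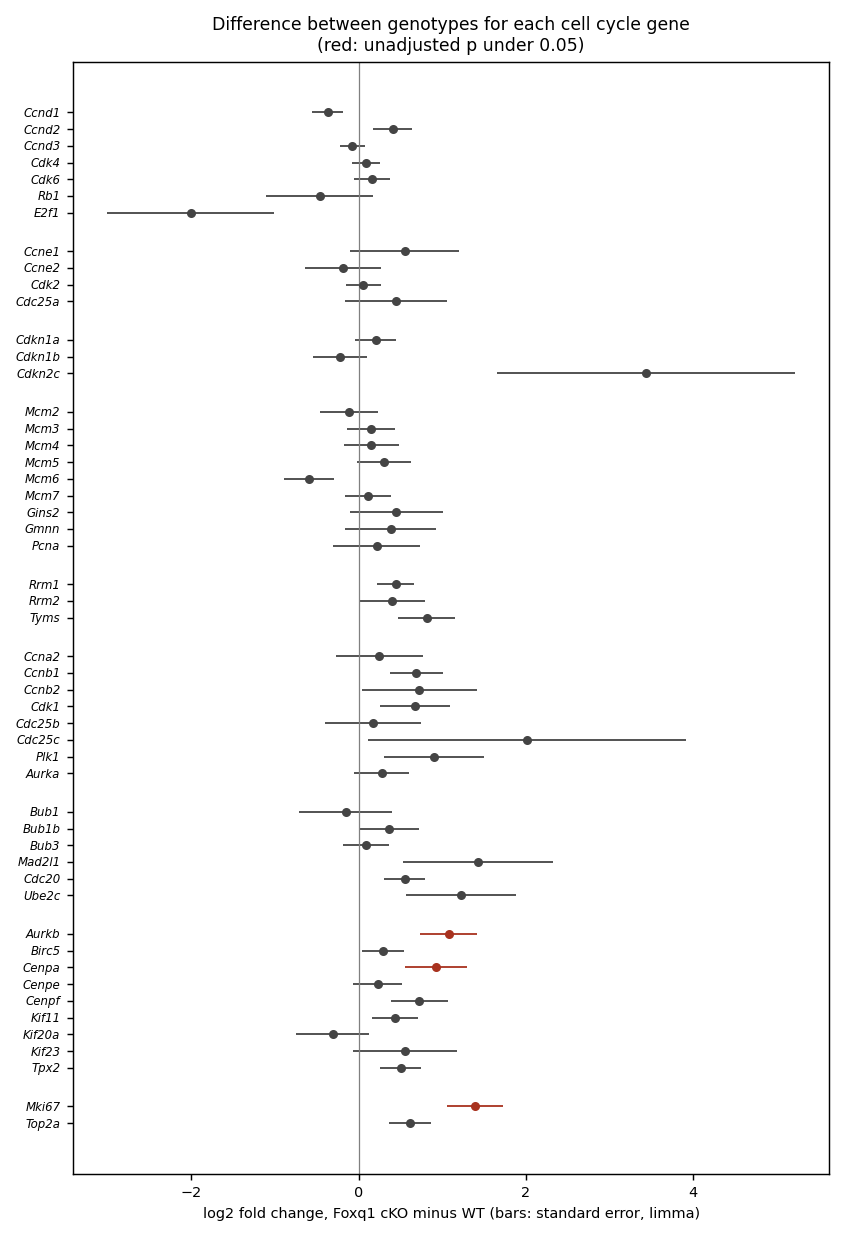
Log2 fold change of each cell cycle gene, *Foxq1* cKO minus WT, on the log2(normalized count + 1) scale, with bars of 1 standard error from limma and 2 samples a group. The 3 genes at an unadjusted p under 0.05 are red (*Aurkb*, *Cenpa* and *Mki67*), and the longest bars belong to *Cdc25c* and *Cdkn2c*, which had 2 reads each in WT sample 1.

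All 3 genes of deoxynucleotide supply had both cKO samples above both WT samples, beside 18% of all genes. The 3 genes had a median log2 fold change of 0.45 and sums of 3778 and 5085 in WT against 6560 and 5904 in cKO. *Tyms*, which makes thymidylate, had 529 and 823 normalized counts in WT and 1128 and 1196 in cKO, a 1.72-fold ratio of means with an unadjusted limma p of 0.0549. *Rrm2*, the regulated subunit of ribonucleotide reductase, had 434 and 419 in WT and 514 and 622 in cKO, a 1.33-fold ratio with a p of 0.337. None of the 3 passed the test. Annotated pseudogenes of *Tyms*, *Ccnb1*, *Ccnb2*, *Ccnd3* and *Pcna* make the assignment of reads to these genes uncertain.

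The genes that license origins and run the replication fork had overlapping sums, 12801 and 15417 normalized counts in WT and 12540 and 14960 in cKO. Of 9 genes 7 were above 0, but the median log2 fold change was 0.15 and was -0.07 without WT sample 1. The groups overlapped for 7 of the 9, beside 7984 of all 12472 genes. *Pcna*, the sliding clamp of DNA polymerase and a common proliferation marker, had 257 and 229 normalized counts in WT and 256 and 312 in cKO, a log2 fold change of 0.22 with a 95% confidence interval from -1.04 to 1.48. *Mcm2*, a subunit of the MCM helicase, had 2068 and 3176 in WT and 1797 and 3118 in cKO, so that the samples of each group differed more than the groups. *Mcm6*, another subunit, was the 1 gene here with both cKO samples below WT, at 4154 and 2448 in WT and 2321 and 1933 in cKO. Its log2 fold change was -0.59 (SE 0.297), with an unadjusted p of 0.0937 by limma and 0.0397 by DESeq2, where the adjusted p was 0.720. It was -0.21 without WT sample 1 and -0.97 without WT sample 2. *Gins2*, of the GINS complex of the helicase, had the highest log2 fold change of the group, 0.45, with 164 and 232 in WT and 268 in each cKO sample, and 2758 bases of its exons lie under exons of *Gse1* on the other strand.

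In G1, the D-type cyclins *Ccnd1* and *Ccnd2*, which bind CDK4 and CDK6, lay on opposite sides of 0. *Ccnd1* had 12405 and 15890 normalized counts in WT and 9624 and 12286 in cKO, so that both cKO samples were below both WT samples. Its log2 fold change was -0.37 (SE 0.186) with an unadjusted limma p of 0.0934, and 0.0317 without WT sample 1. *Ccnd2* had 5311 and 3471 in WT and 5677 and 5720 in cKO, higher in both cKO samples with a p of 0.128. The 7 genes of the group had a median of -0.07, 3 of them above 0, and their sums overlapped at 32579 and 34402 in WT and 30094 and 32955 in cKO.

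*E2f1*, the E2F factor that activates S phase genes, had the lowest log2 fold change of the 51 genes, -2.0 (SE 0.997, an unadjusted limma p of 0.0909). It had 252 and 91.7 normalized counts in WT and 67.5 and 20.3 in cKO, a low level at which the samples of each group differed severalfold. *Rb1*, which holds E2F in check, had 338 and 166 in WT and 155 and 190 in cKO, where WT sample 1 stood apart and WT sample 2 lay between the cKO samples. Of the S phase entry genes, 3 of 4 were above 0, and the groups overlapped for all 4, as they did for 7984 of all 12472 genes. *Ccne1*, which encodes cyclin E1, had 193 and 507 in WT and 328 and 645 in cKO, and *Ccne2* 602 and 659 in WT and 389 and 783 in cKO.

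The CDK inhibitors, which stop the cycle, gave no common direction. *Cdkn1a*, encoding the p53 target p21, had 2222 and 2231 normalized counts in WT and 2145 and 3077 in cKO, with 1 cKO sample below WT and the other above. *Cdkn1b*, encoding p27, had 948 and 850 in WT and 897 and 659 in cKO. *Cdkn2c*, encoding the CDK4 and CDK6 inhibitor p18, had 1.69 and 122 in WT and 184 and 208 in cKO. Its log2 fold change of 3.44 (SE 1.78, an unadjusted limma p of 0.101) is the highest of the 51 and rests on the 2 reads of WT sample 1, since it was 0.68 without that sample and 1.67 by DESeq2. Of 7 other p53 target genes tested, 2 were above 0, and their median log2 fold change was -0.99. That median ranged from -0.80 to 0.018 when 1 sample was left out. For 3 of the 7 both cKO samples were below both WT samples, beside 18% of all genes. None of the 7 passed an unadjusted limma p of 0.05 in either direction.

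**Figure D4:**
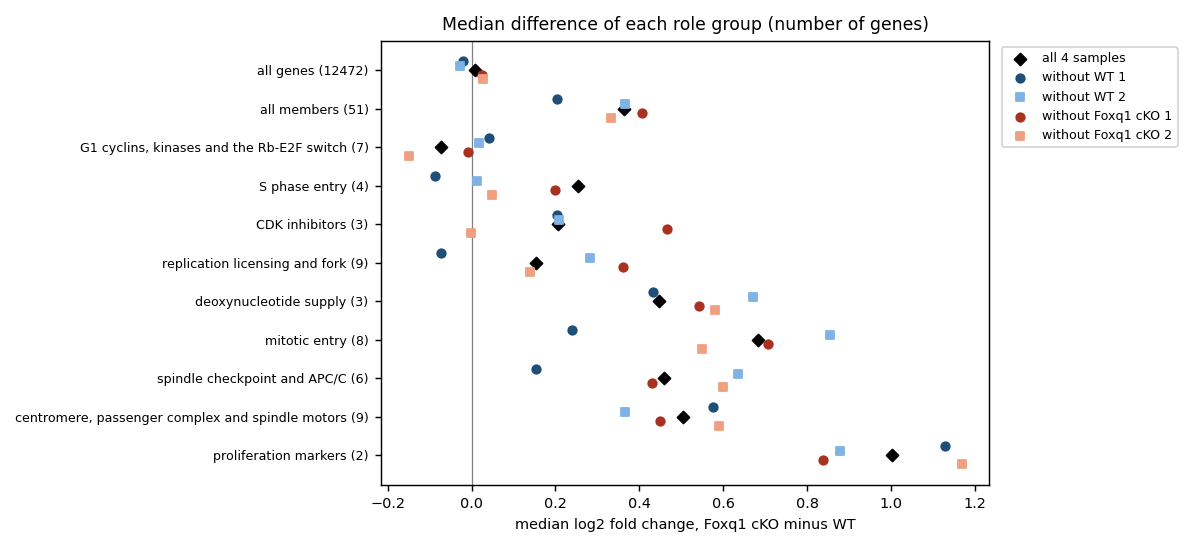
Median log2 fold change of each role group, *Foxq1* cKO minus WT, with all 4 samples (black diamonds) and with each sample left out in turn, and the number of genes tested in brackets. The median of all genes stays near 0, and without WT sample 1 the mitotic entry median moves from 0.68 to 0.24 while that of the centromere, passenger complex and motor genes goes from 0.50 to 0.57.

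Levels of the genes differed widely within the WT samples. Per kilobase of exon, the mean normalized count in WT was highest for *Ccnd1* at 3004, followed by *Cdk4* at 1252, *Mcm3* at 1042 and *Ccnd3* at 946. It was lowest for *Cdc25c* at 16.2, *Mad2l1* at 18.4 and *Cdkn2c* at 23.0. These 3 lowest genes were also the 3 with the widest gaps between the samples of a group on the log2 scale. *Mki67* stood at 76.6 and *Top2a* at 245 on this scale.

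Other cell cycle genes outside the list, also chosen with earlier results of these data known, were then counted. Of 75 tested among 81 listed, 58 had a log2 fold change above 0, or 77.3% beside 50.7% of all genes, with a median of 0.41. WT sample 1 was the lowest sample for 46 of the 75, and without it the median was 0.15. At an unadjusted limma p under 0.05, 3 of the 75 were higher and 0 lower, beside 2.17% and 3.05% of all genes. None of the 75 passed the adjusted threshold. By list, 28 of 34 mitosis genes, 17 of 24 replication and S phase genes and 13 of 17 regulators were above 0, with medians of 0.49, 0.34 and 0.24. Without WT sample 1 these medians were 0.15, 0.41 and 0.084.

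The 3 that passed the unadjusted threshold were all mitosis genes, and their p-values are before adjustment. *Melk*, a kinase made in dividing cells, had 198 and 209 normalized counts in WT and 511 and 528 in cKO, with a log2 fold change of 1.35 (SE 0.463, a limma p of 0.0268). *Ncaph*, a condensin subunit, had a log2 fold change of 0.89 (SE 0.324, a limma p of 0.0325). *Espl1*, which encodes separase, the protease that parts sister chromatids, had 0.95 (SE 0.355, a limma p of 0.0359). All 3 had both cKO samples above both WT samples, as did 18% of all genes. *Foxm1*, a forkhead factor that activates mitotic genes with MuvB, had 33.7 and 245 in WT and 201 and 336 in cKO, with a log2 fold change of 1.5 (SE 1.04, a limma p of 0.201), and the groups overlapped.

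Markers of the cell types of the cortex were set beside these values. All 10 endothelial markers were present, with sums of 374351 and 345699 normalized counts in WT and 300205 and 338142 in cKO, and 9 of 10 had a log2 fold change below 0 (median -0.16), of which *Flt1* was lower at an unadjusted limma p of 0.0463. Pericyte and smooth muscle markers (7 of 8 tested) summed to between 142858 and 154980 in the 4 samples, a level that shows mural RNA beside the sorted ECs. The 6 of 8 neural progenitor markers tested, a cell type that also divides at E18, summed to 14288 and 14901 in WT and 12941 and 12584 in cKO. Most of this sum was *Fabp7* and *Slc1a3*. Of the 6, 2 (*Sox2* and *Fabp7*) had a log2 fold change above 0 and 4 below, and 0 passed an unadjusted limma p of 0.05. *Fabp7* had 5596 and 5731 in WT and 5499 and 6104 in cKO. *Eomes* and *Neurog2* were not analysed here. Microglia and macrophage markers (10 of 10) summed to 9800 and 10929 in WT and 7244 and 7789 in cKO, with *Csf1r* lower at an unadjusted limma p of 0.0109, but 5 of the 10 had a log2 fold change above 0 and 5 below, among the former *C1qc* at 1.45 and *Ptprc* at 2.38, with p-values over 0.05. Neuron markers (8 of 10) had a median of -0.40, oligodendrocyte precursor markers (3 of 5) of -0.61 and erythroid markers (6 of 7) of 0.02. The part of these cell types in the cell cycle values was not tested.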

How the data were processed

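Cells sorted for CD31 from E18 mouse cortex were profiled by RNA-seq in 2 WT and 2 *Foxq1* cKO samples, grouped by their labels. RNA was extracted with TRIzol, and the study names Smart-seq2 and an Illumina platform. The submitters' processing notes name TopHat2 2.0.12, Bowtie2 2.2.3, HTSeq 0.6.0 and mm9, and the strand used in counting is not given in the sources used here. The authors deposited a normalized signal per gene. It was found to be the read count divided by 1 size factor per sample (100% of values whole within 0.001), so reads were recovered as value times size factor. The 1207361 repeated lines were reduced to 12693 symbols, of which none was without a read in any sample, and 8 symbols carried more than 1 gene ID. Because the values are not whole counts as deposited, limma 3.58.1 (R 4.3.3, eBayes with trend) was fitted to log2(value + 1) over genes averaging 10 or more, with Benjamini-Hochberg adjustment over all 12472 genes. On this scale the pseudocount shrinks the fold change of low genes, whereas a mean of logs gives weight to 1 sample near 0, as for *Cdc25c* and *Cdkn2c*. DESeq2 1.42.0 and edgeR 4.0.16 (quasi-likelihood) used the recovered reads as alternatives, beside other pseudocounts, filters, scalings and each sample left out. Without molecular identifiers, reads are not independent molecules. Exon lengths, overlaps (18 of the cell cycle genes share exon bases with a gene on the other strand) and promoters came from GRCm38, by gene name, and no coordinates of the deposited data were used. The fit was tested on simulated data. Members and lists were chosen with earlier results of these data known. Full values are given for genes at an unadjusted p under 0.05, a set of fixed anchors, the extremes of each role group and the 5 widest gaps between samples of a group.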

Additional observations from a re-analysis of the deposited data

How the results depend on the processing

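The median log2 fold change of the cell cycle genes stayed above 0 in all 15 alternatives. It ranged from 0.20 to 0.41 over the 4 fits that left out 1 sample each, with the lowest value without WT sample 1. Of the cell cycle genes, 3 were past an unadjusted p of 0.05 by limma, against 1 without moderation of the variances and 6 by DESeq2 (5 higher, 1 lower), and 0 to 13 over the fits without 1 sample, lowest without cKO sample 1 and highest without WT sample 2. The count past an adjusted p of 0.05 was 0 in every alternative except DESeq2, where it was 1. The count with both groups apart and higher in cKO was 20, and 25 to 35 without 1 sample, an alternative chosen after seeing the data, where the share over all genes is also higher, 31.0% to 37.2%.

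The labels number the samples 1 and 2 in both groups. Over all genes tested, the deviations of same-numbered samples from their group means correlated at 0.0325. The labels do not say whether such samples shared a litter or a preparation, and a correlation over all genes cannot decide it. With a replicate block, 5 of the cell cycle genes passed the unadjusted threshold (3 higher, 2 lower) and 0 the adjusted one, beside 693 and 0 of all 12472 genes. *Mki67* and *Aurkb* kept an unadjusted p under 0.05 there, *Cenpa* lost it, and *Top2a*, *Ccnd1* and *Mcm6* gained it.

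Leaving out 1 sample turned the direction of 9 of the 27 named genes, with log2 fold changes of -0.97 to 0.042 for *Rb1*, -0.14 to 1.25 for *Ccne1*, -0.69 to 0.31 for *Ccne2*, -0.054 to 0.47 for *Cdkn1a*, -0.51 to 0.28 for *Mcm2*, -0.39 to 0.73 for *Cdc25b*, -0.93 to 4.95 for *Cdc25c*, -0.80 to 0.49 for *Bub1*, -0.86 to 0.25 for *Kif20a*, and the cause was not tested. None of the 27 turned in the 11 other alternatives. An unadjusted p under 0.05 was gained without WT sample 1 by *Ccnd1*, *Ccnd2* and *Top2a*, and without WT sample 2 by *E2f1*, *Cdkn2c*, *Mcm6*, *Tyms*, *Ccnb1*, *Cdc25c*, *Mad2l1* and *Ube2c*. Depth was at least 15827166 reads a sample, and the 2 samples a group (biological coefficient of variation 50.2%) limit the precision more than counting does for genes at the median of 477 reads.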
